A study of Mus musculus with 9 samples.

Results

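The 10 genes described here encode glutamate receptor subunits and a secreted partner of these receptors in cultured mouse neural stem cells (NSCs). They comprised the 4 AMPA receptor subunits Gria1, Gria2, Gria3 and Gria4, the kainate receptor subunits Grik2 and Grik5, the metabotropic glutamate receptors Grm3, Grm5 and Grm7, and the neuronal pentraxin Nptx1. These genes were picked by name, with their levels in the same 9 libraries already known, so their levels and fold changes are given as a description without p-values. All 10 were found by Ensembl identifier among the 55704 genes of the deposited table.

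RNA-seq was performed on NSCs from the subventricular zone (SVZ) of C57BL/6 mice aged 8-9 weeks, with 2 female and 2 male animals pooled for each isolation. After at least 3 passages in bFGF and EGF, cells attached to poly-L-ornithine and laminin were either collected in bFGF/EGF at day 0 or kept for 6 days in bFGF plus BMP4 or in BMP4 alone, with every factor at 20 ng/mL. Each of the 3 conditions (bFGF/EGF-treated, bFGF/BMP4-treated and BMP4-treated NSCs) had 3 libraries, described by the study as biological replicates, although the labels do not say whether each came from its own isolation, and p-values therefore measure only the spread between these libraries. All cells had been in bFGF and EGF first, and treatment and time in culture cannot be told apart in a comparison with day 0. Only the comparison between the day 6 groups is matched in time, and it differs by the presence of bFGF.

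Glutamate acts on ion channels and on G protein-coupled receptors. AMPA receptors are tetramers of GRIA subunits that carry fast excitatory current, and the GRIA2 subunit, once its transcript has been edited, keeps them nearly closed to calcium. Kainate receptors combine GRIK subunits, of which GRIK5 needs a partner such as GRIK2 to form a channel. Metabotropic receptors signal through G proteins: GRM5 couples to phospholipase C and calcium release, whereas GRM3 and GRM7 lower cyclic AMP. Neuronal pentraxins are secreted proteins that gather AMPA receptors on the cell surface. Outside neurons, GRM3 and GRM5 are known from astrocytes, and AMPA and kainate receptor subunits from neural and glial progenitors.

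Levels are given in FPKM, fragments scaled by the length of the gene and the size of the library. The gene lengths behind the deposited values were not given. FPKM per fragment times the GENCODE vM39 exon length would be constant had those lengths been used. It ran from 58.8 for Grm7 to 168.1 for Gria4. Orders and shares between genes therefore depend on lengths that are not known here. A log2 fold change is a difference of mean log2(FPKM + 0.1) with its standard error (SE) from a limma fit to all 20207 genes with a mean of at least 0.1 FPKM, and each fold is taken from it, so changes of genes with low values are understated and depend on the pseudocount. A gene was called changed at a Benjamini-Hochberg adjusted p of at most 0.05 together with a fold of at least 2. Gene coordinates are those of GENCODE vM39 on GRCm39. The libraries held 15892854 to 17419822 fragments on genes. Because these are bulk libraries, fewer cells of a type and less RNA per cell cannot be told apart.

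The promoter windows of 4 receptor genes, Grm3, Gria2, Gria4 and Grik2, are shown first. The levels of Gria2 and Gria4 followed the same pattern between the groups, and Grm3 and Grik2 each followed another. Grm3 was taken by rule, as a gene with the largest fold change in a comparison, and the other 3 were added after their values were seen. Each sequence spans 250 bases before to 50 bases after the RefSeq start (table of build GRCm38.p6), reads 5′ to 3′ on the strand of the gene, and matched GRCm39 once, at chr5:9775303-9775602 for Grm3, chr3:80710093-80710392 for Gria2, chr9:4796185-4796484 for Gria4 and chr10:49664801-49665100 for Grik2, each on the minus strand. These RefSeq starts lie 736, 396, 92 and 30 bases inside the outermost GENCODE starts of Grm3, Gria2, Gria4 and Grik2, so the Grm3 and Gria2 windows fall wholly within the GENCODE genes. Capitals mark matches to any of 5 motifs searched on both strands: the GC box GGGCGG, the E-box CANNTG, the AP-1 motif TGANTCA, the GC-rich SMAD element GGCGCC and the CRE core TGACG.
Grm3: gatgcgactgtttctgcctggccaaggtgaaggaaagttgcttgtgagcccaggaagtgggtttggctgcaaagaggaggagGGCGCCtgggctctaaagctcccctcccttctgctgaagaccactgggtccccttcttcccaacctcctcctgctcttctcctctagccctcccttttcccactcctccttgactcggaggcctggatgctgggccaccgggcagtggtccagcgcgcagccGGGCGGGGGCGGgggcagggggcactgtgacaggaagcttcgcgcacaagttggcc
Gria2: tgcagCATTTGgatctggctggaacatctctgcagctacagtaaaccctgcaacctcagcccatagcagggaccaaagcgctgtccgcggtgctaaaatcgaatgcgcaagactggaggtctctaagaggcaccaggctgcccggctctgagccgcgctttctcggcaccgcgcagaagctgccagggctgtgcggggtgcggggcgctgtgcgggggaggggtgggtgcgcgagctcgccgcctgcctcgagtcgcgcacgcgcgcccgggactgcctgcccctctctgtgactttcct
Gria4: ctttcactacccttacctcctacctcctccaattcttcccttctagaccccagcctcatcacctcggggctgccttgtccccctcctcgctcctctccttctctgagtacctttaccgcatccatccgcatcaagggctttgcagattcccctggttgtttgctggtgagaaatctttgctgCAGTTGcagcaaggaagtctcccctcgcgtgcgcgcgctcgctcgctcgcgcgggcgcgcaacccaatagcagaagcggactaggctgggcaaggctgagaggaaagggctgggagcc
Grik2: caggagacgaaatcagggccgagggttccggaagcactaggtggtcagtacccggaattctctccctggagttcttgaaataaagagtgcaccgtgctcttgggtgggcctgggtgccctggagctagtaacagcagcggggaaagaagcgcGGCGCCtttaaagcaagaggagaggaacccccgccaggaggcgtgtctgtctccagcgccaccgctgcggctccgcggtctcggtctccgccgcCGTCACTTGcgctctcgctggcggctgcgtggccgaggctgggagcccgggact

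The Grm3 window held 2 GC boxes side by side and 1 GGCGCC match. Gria2 and Gria4 had 1 E-box each and none of the other 4 motifs in this window. In the Grik2 window, there was 1 GGCGCC match, and a CRE core on the other strand shared bases with 1 E-box. Among 32851 windows of the same length, 72.3% held an E-box, 35.7% a GC box, 20.8% a CRE core, 11.9% GGCGCC and 7.81% the AP-1 motif, so each of these motifs is found in the windows of many genes. A match is a description of the sequence and not evidence of binding. Of the 10 genes, 6 had a window in the table, including Grik5 with 2 GC boxes and Grm7 with 1 GC box in each of 2 windows.

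In bFGF/EGF-treated NSCs, the order by mean level was Grik5 (29.7 FPKM), Grm5 (27.8), Nptx1 (22.3), Gria2 (18.8), Grm3 (11.9), Gria3 (5.84), Gria1 (2.55), Grik2 (1.99), Gria4 (1.03) and Grm7 (0.0032). The ranges of neighbours overlapped among the first 4 genes and were separate further down. In bFGF/BMP4-treated NSCs, Nptx1 (81.6 FPKM) and Gria2 (43.8 FPKM) came first, and the ranges of Gria2 and Grik5, of Grik2 and Grm5, and of Gria1 and Grm3 overlapped. BMP4-treated NSCs again had Grik5 first (25.3 FPKM), followed by Gria2, Grik2 and Gria1 with overlapping ranges, while Grm5, Grm3 and Grm7 stood last with overlapping ranges below 0.3 FPKM.

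**Figure D1:**
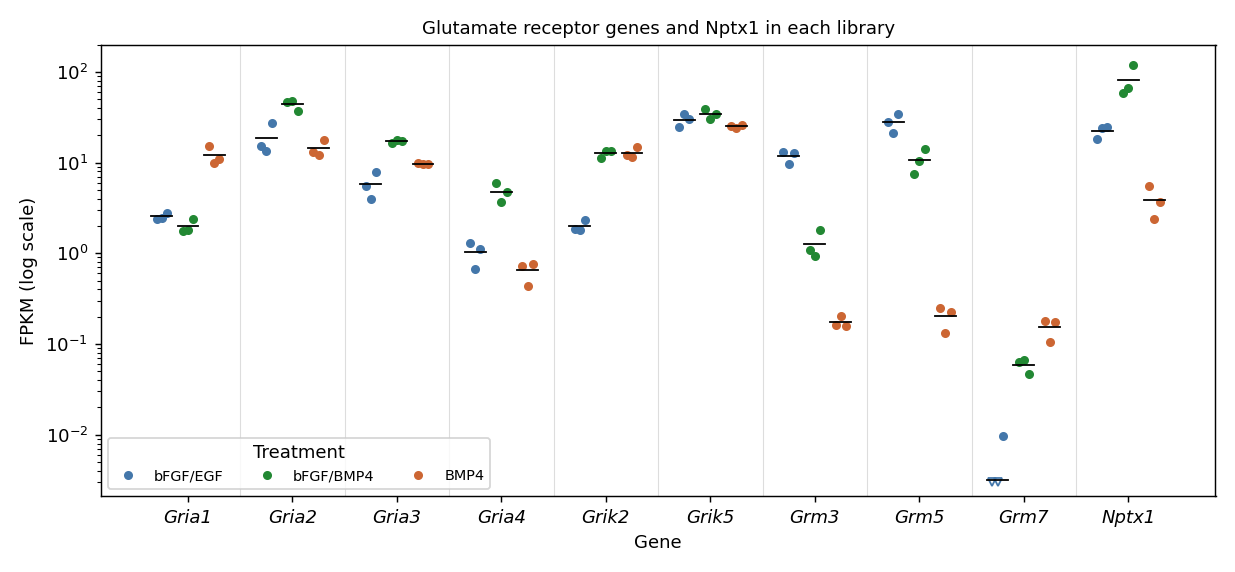
FPKM of the 10 genes on a log axis, with a point for each of the 3 libraries per treatment and a bar at their mean; open triangles at the bottom stand for libraries at 0. Grm5 and Grm3 spread most widely between the treatments, from means of 27.8 and 11.9 FPKM in bFGF/EGF to 0.203 and 0.174 FPKM in BMP4, and Grik5 stayed between 24.3 and 38.6 FPKM.

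Of the 9 genes tested, 7 were called between bFGF/BMP4- and bFGF/EGF-treated NSCs (5 higher, 2 lower), where 30.6% of all genes tested were called (16.5% higher, 14.1% lower). Between BMP4- and bFGF/EGF-treated NSCs, 5 were called (2 higher, 3 lower), against 36.6% of all genes (21.3% higher, 15.4% lower). BMP4-treated NSCs differed from bFGF/BMP4-treated NSCs in 6 of them (1 higher, 5 lower), against 13.5% of all genes (8.41% higher, 5.14% lower). The libraries of the compared groups did not overlap for 8, 7 and 9 of the 10 genes in these comparisons, beside 57.7%, 60.4% and 38.7% of all genes tested. The 8, 7 and 9 include Grm7, which was not among the genes tested and whose groups were separate in all 3 comparisons. Since the genes were chosen with these values known, nothing is read from these counts. Their median log2 fold change was 1.29, -0.33 and -1.61 in the 3 comparisons in that order, beside 0.06, 0.10 and 0 over all genes tested. The 3 groups give 3 comparisons that share libraries, so those comparisons are not independent of each other.

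The 4 AMPA receptor subunits followed more than 1 pattern. Gria2, Gria3 and Gria4 were highest in bFGF/BMP4-treated NSCs, whereas Gria1 was highest in BMP4-treated NSCs. Gria2 (chr3:80588757-80710538, minus strand), which encodes the calcium-limiting subunit, measured 15.2, 13.5 and 27.7 FPKM in the bFGF/EGF libraries, 46.1, 47.9 and 37.5 FPKM in the bFGF/BMP4 libraries, and 13.2, 12.3 and 17.7 FPKM in the BMP4 libraries. Every bFGF/BMP4 library lay above the other 6, and the bFGF/EGF and BMP4 libraries overlapped. Its level in bFGF/BMP4-treated NSCs was 2.44-fold higher than in bFGF/EGF-treated NSCs (log2 1.29, SE 0.25), and BMP4-treated NSCs were 3.06-fold lower than bFGF/BMP4-treated NSCs (log2 -1.61). The third bFGF/EGF library was the highest of its group, and without it the difference between BMP4- and bFGF/EGF-treated NSCs went from -0.33 to -0.01 on the log2 scale.

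Gria4 (chr9:4417604-4796326, minus strand), another AMPA receptor subunit, showed the same order at lower levels. It was at 1.31, 0.672 and 1.11 FPKM in bFGF/EGF, at 5.94, 3.72 and 4.71 FPKM in bFGF/BMP4, and at 0.733, 0.441 and 0.769 FPKM in BMP4. The bFGF/BMP4 libraries were separate from all others, being 4.39-fold above bFGF/EGF (log2 2.13, SE 0.30), and BMP4-treated NSCs were 6.57-fold below them (log2 -2.72). With a pseudocount of 1, these log2 differences were 1.51 and -1.80. These levels rested on 67 to 140, 360 to 602 and 45 to 80 fragments per library.

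Gria3 (chrX:40489476-40767490, plus strand), the AMPA receptor subunit that often pairs with GRIA2, measured 5.57, 4.02 and 7.92 FPKM in bFGF/EGF, 16.5, 17.8 and 17.4 FPKM in bFGF/BMP4, and 9.91, 9.62 and 9.69 FPKM in BMP4. Here the 3 groups did not overlap, with the BMP4 libraries in the middle. The bFGF/BMP4 level was 3.02-fold that of bFGF/EGF-treated NSCs (log2 1.60, SE 0.20). In BMP4-treated NSCs Gria3 was 1.72-fold above bFGF/EGF and 1.76-fold below bFGF/BMP4, both short of the fold threshold. The former was called without the third bFGF/EGF library (log2 1.03 against 0.78 with it).

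Gria1 (chr11:56902153-57221080, plus strand), the AMPA receptor subunit often found without GRIA2 in calcium-permeable receptors, had another order. Its level was 2.38, 2.48 and 2.80 FPKM in bFGF/EGF and 1.78, 1.82 and 2.42 FPKM in bFGF/BMP4, 2 groups that overlapped. In BMP4-treated NSCs it reached 15.4, 10.0 and 10.8 FPKM, above every other library. The BMP4 level was 4.52-fold higher than that of bFGF/EGF-treated NSCs (log2 2.18, SE 0.19) and 5.73-fold higher than that of bFGF/BMP4-treated NSCs (log2 2.52).

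The summed AMPA receptor level was 28.2 ± 9.97 FPKM in bFGF/EGF, 67.9 ± 5.06 FPKM in bFGF/BMP4 and 36.8 ± 3.92 FPKM in BMP4 (mean ± SD, n = 3 here and below). Gria2 made up 65.8% ± 3.98 and 64.4% ± 3.50 of that sum in bFGF/EGF- and bFGF/BMP4-treated NSCs, and 38.97% ± 6.02 in BMP4-treated NSCs. The share of Gria1 was 9.62% ± 2.47, 3.00% ± 0.781 and 32.7% ± 5.95 in the same order. The mean share of Gria3 was between 20.8% and 26.6%, with libraries from 19.5% to 29.8%, and that of Gria4 was at most 7.09%, with a highest library at 8.45%. These shares are of transcripts, and whether the Gria2 transcripts were edited cannot be read from gene levels.

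**Figure D2:**
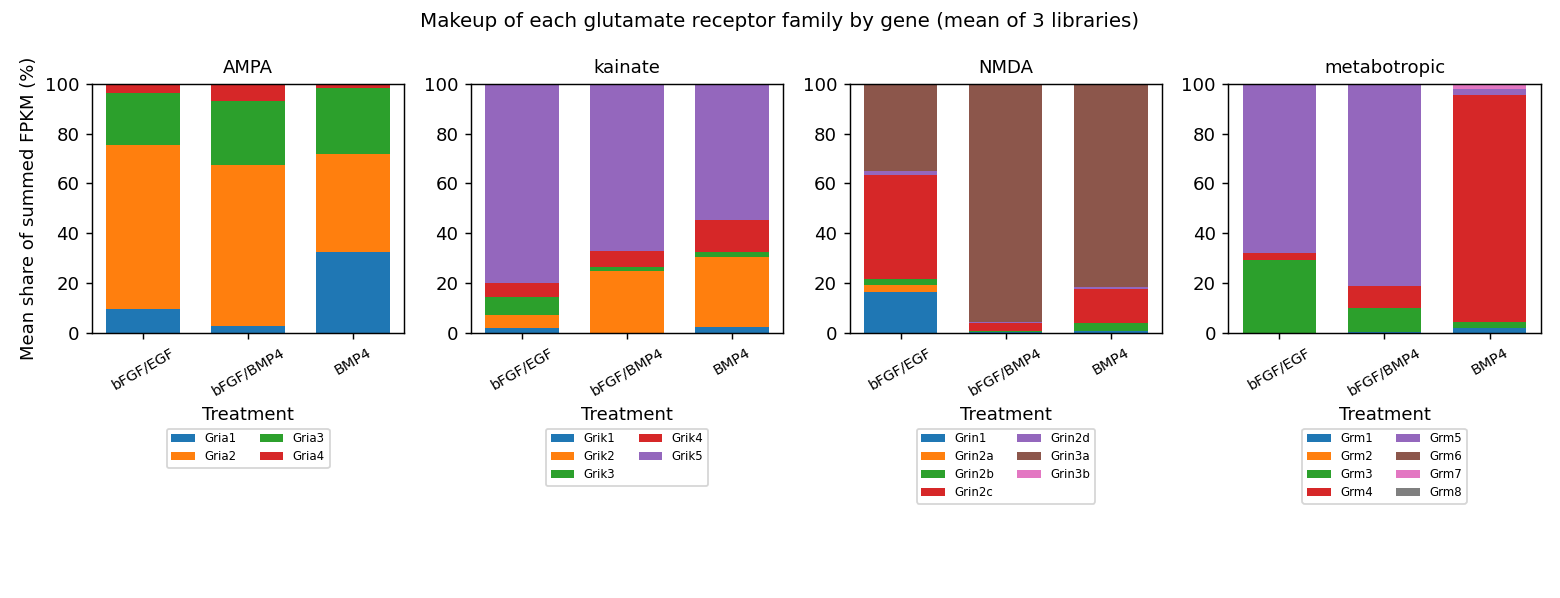
Stacked bars give the mean percentage of each gene in the summed FPKM of its receptor family, for AMPA, kainate, NMDA and metabotropic receptors and 3 treatments (3 libraries each). Gria1 takes 32.7% of the AMPA bar in BMP4 against 3.00% in bFGF/BMP4, and Grm4 takes 91.0% of the metabotropic bar in BMP4, where Grm5 takes 2.59%.

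Among the kainate receptor subunits, Grik2 was higher in both BMP4-containing conditions and Grik5 was not called in any comparison. Grik2 (chr10:48970929-49664880, minus strand), which forms channels on its own or with Grik5, was at 1.88, 1.79 and 2.31 FPKM in bFGF/EGF, at 11.1, 13.5 and 13.5 FPKM in bFGF/BMP4, and at 12.2, 11.5 and 15.0 FPKM in BMP4. All 6 libraries from day 6 were above all 3 from day 0, and the day 6 groups overlapped. The fold over bFGF/EGF-treated NSCs was 6.13 with bFGF/BMP4 (log2 2.62, SE 0.15) and 6.22 with BMP4 (log2 2.64), and the difference between the day 6 groups was 0.02 on the log2 scale. Grik5 (chr7:24709269-24772708, minus strand) stood at 24.9, 34.3 and 30.02 FPKM in bFGF/EGF, at 38.6, 30.5 and 34.4 FPKM in bFGF/BMP4, and at 25.3, 24.3 and 26.2 FPKM in BMP4. Its groups overlapped against bFGF/EGF. The BMP4 libraries were all below the bFGF/BMP4 libraries, by a log2 difference of -0.44 (SE 0.14) that was not called. In GENCODE vM39, Grik5 shares 717 bases with Zfp574 on the opposite strand (group means of 9.53, 10.1 and 8.88 FPKM), and the strand setting of the counting was not given in the sources used here.

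Together with the other subunits, kainate receptor transcripts summed to 37.1 ± 5.16, 51.5 ± 2.40 and 46.3 ± 3.20 FPKM in bFGF/EGF, bFGF/BMP4 and BMP4. The Grik2 share was 5.45% ± 1.07, 24.8% ± 3.42 and 27.9% ± 2.93 in the same order. Grik5 made up 80.1% ± 1.70, 66.9% ± 5.41 and 54.6% ± 2.16 of the sum.

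The metabotropic receptors Grm5 and Grm3 had their highest levels in bFGF/EGF-treated NSCs and were below 0.3 FPKM in every BMP4-treated library. Grm5 (chr7:87233376-87784594, plus strand), the receptor coupled to calcium release, was at 28.3, 21.1 and 34.1 FPKM in bFGF/EGF, at 7.52, 10.49 and 14.3 FPKM in bFGF/BMP4, and at 0.252, 0.133 and 0.225 FPKM in BMP4. The groups were separate from each other, and in fragments the BMP4 libraries held 22 to 42 where the bFGF/EGF libraries held 3415 to 6173. Relative to bFGF/EGF-treated NSCs, Grm5 was 2.61-fold lower in bFGF/BMP4-treated NSCs (log2 -1.38, SE 0.27) and 91.8-fold lower in BMP4-treated NSCs (log2 -6.52). Between the day 6 groups it was 35.2-fold lower in BMP4 (log2 -5.14). The size of both differences from BMP4 depended on how low values were treated: over the alternatives the log2 values ran from -7.20 with limma-voom to -4.56 with a pseudocount of 1 against bFGF/EGF, and from -5.69 to -3.25 against bFGF/BMP4.

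Grm3 (chr5:9534069-9776088, minus strand), which lowers cyclic AMP, measured 13.1, 9.60 and 12.9 FPKM in bFGF/EGF, 1.08, 0.941 and 1.81 FPKM in bFGF/BMP4, and 0.162, 0.202 and 0.159 FPKM in BMP4. As for Grm5, no group overlapped with another. It was 8.92-fold lower in bFGF/BMP4 than in bFGF/EGF (log2 -3.16, SE 0.25) and 43.3-fold lower in BMP4 than in bFGF/EGF (log2 -5.44). With a pseudocount of 1 these log2 values were -2.51 and -3.44, and with limma-voom the latter was -6.10. BMP4-treated NSCs had 8 to 10 fragments per library and bFGF/BMP4-treated NSCs 44 to 81. The log2 difference between these 2 groups was -2.28, and it was -0.94, past no fold threshold, with a pseudocount of 1.

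Grm7 (chr6:110622542-111544191, plus strand), the third metabotropic receptor, was barely detected and its mean of 0.0715 FPKM was under the filter, so it was not in the main fit. Without the filter it was called between BMP4 and bFGF/EGF, which made 6 of the 10 genes called there against 5. It was counted with 0, 0 and 1 fragments in the bFGF/EGF libraries, with 6, 6 and 4 fragments in the bFGF/BMP4 libraries, and with 17, 10 and 17 fragments in the BMP4 libraries. At most 3 fragments in a library were treated as not detected, which applies to all bFGF/EGF libraries. The ratio of BMP4 to bFGF/BMP4 fragments, pooled over the 3 libraries of each group and adjusted for depth, was 2.59. No ratio to bFGF/EGF is given, because its libraries held 1 fragment in all. The ratio leaves out the spread between libraries, and it takes the smallest whole numbers that give the deposited values as the fragments.

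The summed metabotropic receptor level was 40.7 ± 8.11 FPKM in bFGF/EGF, 13.3 ± 3.60 FPKM in bFGF/BMP4 and 7.82 ± 1.66 FPKM in BMP4. In bFGF/EGF-treated NSCs Grm5 and Grm3 made up 68.0% ± 2.70 and 29.3% ± 2.22 of it. Grm5 made up 80.4% ± 4.36 in bFGF/BMP4-treated NSCs. With BMP4 alone, Grm4, another receptor that lowers cyclic AMP and not among the 10 genes, accounted for 91.0% ± 1.33.

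Nptx1 (chr11:119428472-119438585, minus strand), which encodes the secreted neuronal pentraxin 1, had separate ranges in all 3 groups. It stood at 18.4, 23.8 and 24.6 FPKM in bFGF/EGF, at 58.5, 66.9 and 119.3 FPKM in bFGF/BMP4, and at 5.49, 2.37 and 3.65 FPKM in BMP4. No library overlapped with another group, and the third bFGF/BMP4 library was well above the other 2 of its group. Its bFGF/BMP4 level was 3.50-fold that of bFGF/EGF-treated NSCs (log2 1.81, SE 0.32, and 1.497 without the third bFGF/BMP4 library). With BMP4 alone it was 5.96-fold lower than in bFGF/EGF (log2 -2.57) and 20.8-fold lower than in bFGF/BMP4 (log2 -4.38).

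**Figure D3:**
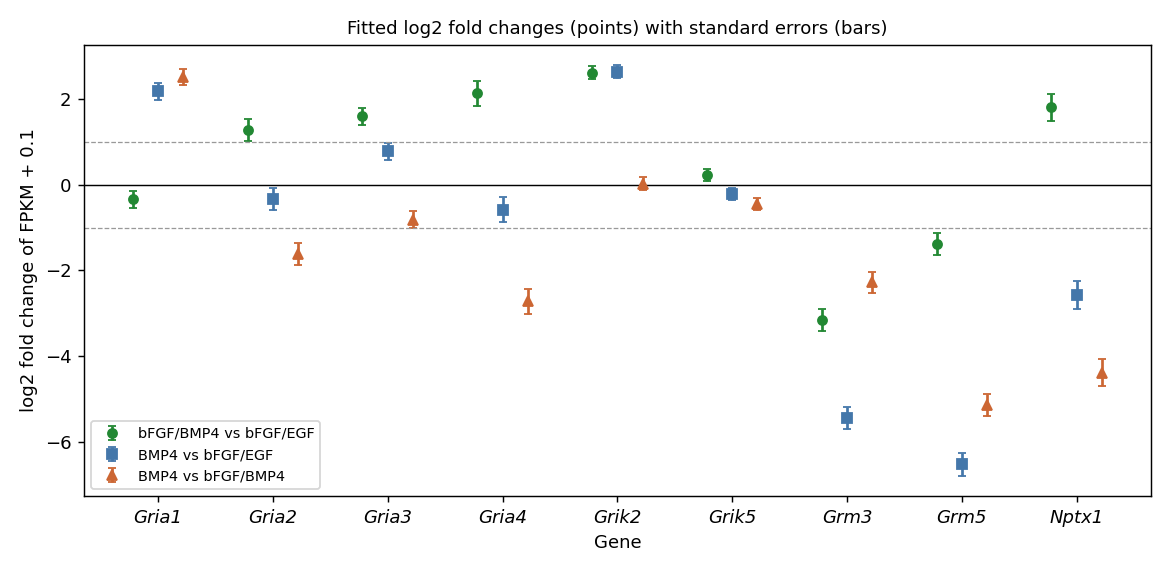
Fitted log2 fold changes of FPKM + 0.1 for the 9 genes tested (points) with their standard errors (bars), for the 3 comparisons, with dashed lines at a fold of 2 in either direction. Nptx1 lies at 1.81 for bFGF/BMP4 against bFGF/EGF and at -2.57 for BMP4 against bFGF/EGF, whereas Grik2 lies at 2.62 and 2.64.

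Genes with the most similar levels over the 9 libraries were sought among 11213 protein-coding genes with a mean of at least 1 FPKM, by Pearson's r of log2(FPKM + 0.1). Since the libraries form 3 groups, a high r mainly says that the group levels had the same order and spacing. For Gria2 these were Cdh10 (r = 0.969), Gabra2 (0.968) and Rorb (0.959). For Grm5 they were Etv1 (0.993), Rasa3 (0.990) and Golm1 (0.990), and Etv1 levels were 6.12, 3.53 and 0.634 FPKM in bFGF/EGF, bFGF/BMP4 and BMP4. Grik2 was matched by Luzp2 (0.998), Lmbrd1 (0.997) and Ptgr2 (0.997), and Nptx1 by Csmd2 (0.983), Ptgfrn (0.979) and Rbm20 (0.978).

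The other 17 glutamate receptor genes, of which 13 were tested, changed in both directions. Between bFGF/BMP4- and bFGF/EGF-treated NSCs 3 rose and 5 fell, between BMP4- and bFGF/EGF-treated NSCs 4 rose and 3 fell, and 3 were higher and 3 lower in BMP4- than in bFGF/BMP4-treated NSCs. Beside these and the later list counts stand the shares of all genes tested that were called, 30.6%, 36.6% and 13.5% in the same order. Adjusted p-values in what follows are from the limma fit with Benjamini-Hochberg adjustment over all genes tested. Grin3a, an NMDA receptor subunit that lowers calcium entry, rose from 4.92, 4.45 and 5.86 FPKM in bFGF/EGF to 58.2, 68.5 and 74.2 FPKM in bFGF/BMP4 (log2 3.70, adjusted p = 1.97e-07) and to 30.7, 23.1 and 34.0 FPKM in BMP4 (log2 2.50, adjusted p = 1.48e-06). Its bFGF/BMP4 level also exceeded that of BMP4 (log2 difference of BMP4 from bFGF/BMP4 -1.20, adjusted p = 0.000653). Grin1, the subunit that NMDA receptors require, fell from 2.50 ± 0.610 FPKM in bFGF/EGF to 0.184 ± 0.0349 FPKM in bFGF/BMP4 and 0.247 ± 0.0460 FPKM in BMP4 (log2 -3.17 and -2.89, adjusted p = 1.07e-05 and 1.30e-05). Of the summed NMDA receptor level, Grin3a made up 34.4%, 95.05% and 81.3% in bFGF/EGF, bFGF/BMP4 and BMP4, and Grin1 16.6%, 0.261% and 0.707%.

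Grid1, a delta receptor that binds synaptic organizers and not glutamate itself, was highest in bFGF/BMP4-treated NSCs. It was at 4.86 ± 0.465, 15.3 ± 0.532 and 6.85 ± 1.08 FPKM in bFGF/EGF, bFGF/BMP4 and BMP4, a log2 rise of 1.64 and then a log2 difference of -1.16 between the day 6 groups (adjusted p = 8.75e-06 and 0.000232). Grik1, a kainate receptor subunit, had its lowest level in bFGF/BMP4-treated NSCs (0.0584 ± 0.0123 FPKM), below bFGF/EGF (0.662 ± 0.142 FPKM, log2 -2.25, adjusted p = 0.000330) and BMP4 (1.18 ± 0.459 FPKM, log2 2.95 for BMP4 over bFGF/BMP4, adjusted p = 0.000170). With a pseudocount of 1 the former was no longer called (log2 -0.65).

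Grm4 was higher in BMP4-treated NSCs, at 6.79, 5.73 and 8.86 FPKM, than in bFGF/EGF-treated NSCs at 0.758, 1.21 and 1.01 FPKM (log2 2.72, adjusted p = 5.40e-06) and in bFGF/BMP4-treated NSCs at 1.23, 1.11 and 0.933 FPKM (log2 2.59, adjusted p = 3.78e-05). Grik4, which like Grik5 needs a partner subunit, rose with BMP4 from 1.97 ± 0.472 to 5.96 ± 1.27 FPKM (log2 1.56, adjusted p = 0.000283). Grik3 fell from 2.69 ± 0.617 FPKM to 0.817 ± 0.285 FPKM with bFGF/BMP4 and to 0.998 ± 0.434 FPKM with BMP4 (log2 -1.63 and -1.40, adjusted p = 0.00344 and 0.00700), and with a pseudocount of 1 the second was not called (log2 -0.89). The NMDA receptor subunit Grin2c fell with bFGF/BMP4 from 6.21 ± 1.25 to 2.41 ± 0.419 FPKM (log2 -1.33, adjusted p = 0.00284). Grin2b was higher in BMP4 (1.26 ± 0.642 FPKM) than in bFGF/EGF (0.379 ± 0.0726 FPKM, log2 1.39, adjusted p = 0.0119) and bFGF/BMP4 (0.248 ± 0.0397 FPKM, log2 1.84, adjusted p = 0.00697), though the former was not called without the third BMP4 library (log2 1.07), and neither was called with a pseudocount of 1.

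Of 6 pentraxin genes, 3 were tested. Nptx2, which also gathers AMPA receptors, was at 42.3, 59.9 and 44.0 FPKM in bFGF/EGF, at 0.565, 0.463 and 0.509 FPKM in bFGF/BMP4, and at 0.874, 0.901 and 1.08 FPKM in BMP4. It fell in both day 6 groups (log2 -6.30 and -5.53, adjusted p = 1.38e-08 and 1.61e-08). In bFGF/BMP4-treated NSCs, Nptx1 and Nptx2 therefore stood on opposite sides of their bFGF/EGF levels, with Nptx1 3.50-fold higher, and in BMP4-treated NSCs both were lower. The membrane-bound pentraxin receptor Nptxr fell with bFGF/BMP4 from 4.13 ± 0.880 to 1.79 ± 0.197 FPKM (log2 -1.15, adjusted p = 0.00744), a call that a pseudocount of 1 removed (log2 -0.87). Ptx3, a soluble pentraxin of innate immunity, rose with BMP4 from 0.121 ± 0.101 to 1.15 ± 0.668 FPKM (log2 2.41, adjusted p = 0.00275), which was also not called with a pseudocount of 1 (log2 0.89). Of the RNA editing enzymes, Adarb1, which edits the Gria2 transcript, had means of 2.13, 2.43 and 2.57 FPKM and Adar of 7.74, 6.56 and 5.77 FPKM, and neither was called in any of the 3 comparisons (lowest adjusted p = 0.0593).

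**Figure D4:**
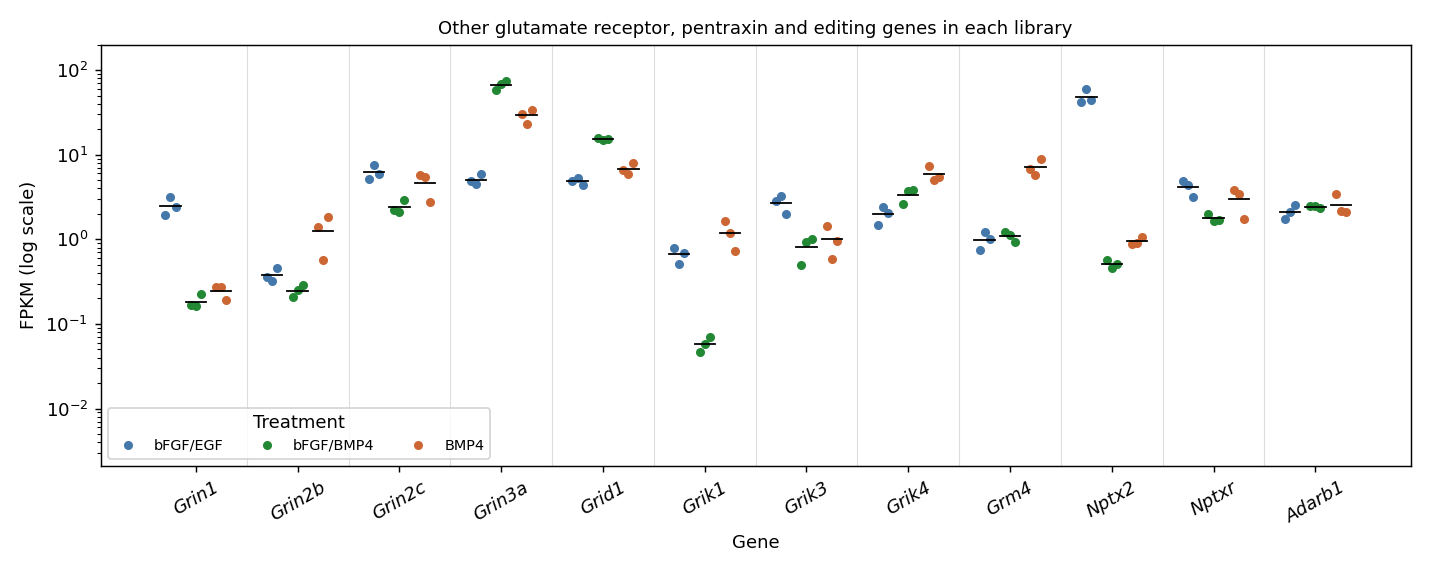
FPKM on a log axis of 12 further genes: NMDA, delta, kainate and metabotropic receptors, the pentraxins Nptx2 and Nptxr, and the editing enzyme Adarb1, with a point for each of the 3 libraries per treatment and a bar at their mean. Grin3a rises from a mean of 5.07 FPKM in bFGF/EGF to 67.0 FPKM in bFGF/BMP4, Nptx2 lies above 40 FPKM only in bFGF/EGF, and Grm4 is highest in BMP4.

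Auxiliary subunits are mostly membrane proteins that set the trafficking and gating of AMPA and kainate receptors. Of 20 tested, 5 rose and 6 fell between bFGF/BMP4 and bFGF/EGF, 6 rose and 8 fell between BMP4 and bFGF/EGF, and 3 were higher and 5 lower in BMP4 than in bFGF/BMP4. Shisa9, an AMPA receptor partner, rose from 0.208 ± 0.0181 FPKM in bFGF/EGF to 11.8 ± 3.91 FPKM in bFGF/BMP4 and 23.4 ± 3.49 FPKM in BMP4 (log2 5.22 and 6.25, adjusted p = 1.17e-07 and 2.68e-08). Cnih3, a cornichon that slows AMPA receptor closing, fell from 5.44 ± 0.405 FPKM to 0, 0.119 and 0.0494 FPKM in the bFGF/BMP4 libraries (adjusted p = 1.21e-06). The kainate receptor partner Neto1 fell from 8.88 ± 1.51 FPKM in bFGF/EGF to 0.550 ± 0.0939 FPKM in BMP4 (log2 -3.78, adjusted p = 3.19e-07). Cacng5, of the TARP family, was highest in bFGF/EGF, at 5.28, 5.85 and 4.75 FPKM. It was at 0.341, 0.0340 and 0.0532 FPKM in bFGF/BMP4 and at 3.50, 2.09 and 1.76 FPKM in BMP4 (log2 3.55 for BMP4 over bFGF/BMP4, adjusted p = 0.000271). Shisa7 was lower in BMP4 (0.388 ± 0.117 FPKM) than in bFGF/BMP4 (2.58 ± 0.270 FPKM, log2 -2.48, adjusted p = 5.61e-05).

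Of 28 scaffold and trafficking genes tested, 3 rose and 4 fell with bFGF/BMP4, and 5 rose and 6 fell with BMP4. In BMP4, 2 were higher and 3 lower than in bFGF/BMP4. Over all genes tested, 30.6%, 36.6% and 13.5% were called in these 3 comparisons. The genes named below had the largest changes of their list. Arc, which drives the removal of AMPA receptors from the surface, fell with both treatments (log2 -5.41 and -4.78, adjusted p = 5.55e-06 and 8.06e-06), as did the kinase subunit Camk2b (log2 -4.32 and -4.76, adjusted p = 2.12e-08 and 7.48e-09). Camk2a was higher (log2 1.80, adjusted p = 0.000578) and the scaffold Cask lower (log2 -1.50, adjusted p = 9.55e-05) in BMP4 than in bFGF/BMP4. The mean of Camk2a was 2.49 FPKM in bFGF/EGF, 0.546 FPKM in bFGF/BMP4 and 2.18 FPKM in BMP4. Of 18 genes of metabotropic receptor signalling, 5 rose and 1 fell with bFGF/BMP4, 6 rose and 4 fell with BMP4, and 2 were higher and 5 lower in BMP4 than in bFGF/BMP4. Prkca and the G protein subunit Gnao1 rose with bFGF/BMP4 (log2 3.01 and 2.17, adjusted p = 2.47e-07 and 2.80e-07). Prkcb fell with BMP4 (log2 -3.32, adjusted p = 5.83e-07) while Rgs4, which ends G protein signals, rose (log2 2.63, adjusted p = 9.26e-06), and Prkcb and Grk3 were lower in BMP4 than in bFGF/BMP4 (log2 -1.77 and -1.72, adjusted p = 0.000142 and 2.96e-05).

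Of 14 genes of glutamate uptake, release and metabolism tested, 4 rose and 3 fell with bFGF/BMP4, 5 rose and 2 fell with BMP4, and 2 were higher and 2 lower in BMP4 than in bFGF/BMP4. The glutamate transporter Slc1a2 rose from 12.6 ± 2.24 to 175.2 ± 18.1 FPKM with bFGF/BMP4 and the glutamine transporter Slc38a3 from 13.1 ± 1.15 to 160.0 ± 22.5 FPKM (log2 3.79 and 3.59, adjusted p = 2.24e-07 and 1.80e-07). With BMP4, glutamate dehydrogenase (Glud1) and glutamine synthetase (Glul) rose (log2 3.09 and 2.99, adjusted p = 1.36e-07 and 6.43e-06). Slc38a1 was higher and Slc1a1 lower in BMP4 than in bFGF/BMP4 (log2 1.73 and -1.45, adjusted p = 0.000240 and 0.00125), the latter not called with a pseudocount of 1 (log2 -0.89).

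Target genes of the factors are described with 2 lists. They were chosen with earlier results of these data known, so they are not an independent check of the response. All 8 BMP target genes rose in both day 6 groups, and of 9 FGF/ERK target genes, 3 fell with bFGF/BMP4 and 8 with BMP4. Id4, an inhibitor of differentiation induced by BMP, rose with bFGF/BMP4 and with BMP4 (log2 5.69 and 7.003, adjusted p = 1.18e-08 and 2.44e-09), and Id4 and Id3 were higher in BMP4 than in bFGF/BMP4 (log2 1.31 and 1.43, adjusted p = 0.000223 and 0.00617). Smad6, a feedback inhibitor of BMP signalling listed at 0 in all bFGF/EGF libraries, also rose in both day 6 groups (adjusted p = 1.08e-08 and 4.82e-09). The feedback inhibitors Spry4 and Dusp4 fell with bFGF/BMP4 (log2 -1.61 and -1.31, adjusted p = 0.00399 and 0.000423), and Dusp6 was lower in BMP4 than in bFGF/EGF and bFGF/BMP4 (log2 -5.40 and -4.86, adjusted p = 3.73e-06 and 3.72e-05). Etv4, a target of FGF signalling, was at 36.9 ± 4.39, 36.1 ± 0.915 and 0.657 ± 0.300 FPKM in bFGF/EGF, bFGF/BMP4 and BMP4 (log2 -5.69 for BMP4 against bFGF/EGF, adjusted p = 1.22e-07).

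The summed level of 9 NSC markers was 980 to 1168 FPKM in bFGF/EGF, 437 to 472 FPKM in bFGF/BMP4 and 3184 to 4108 FPKM in BMP4, with 4 higher and 4 lower in bFGF/BMP4 and 4 higher and 2 lower in BMP4 than in bFGF/EGF. Gfap, which also stands in the astrocyte list, made up much of the sum of both lists in BMP4 (means of 0.0926, 19.4 and 2566 FPKM). Sox2, a transcription factor of NSCs, was present in all groups (means of 136.6 to 167.2 FPKM), while Nes, an intermediate filament of NSCs, was at 151.3, 3.55 and 15.8 FPKM. Sums for markers of most other cell types also differed between the groups. The summed level of 10 astrocyte markers was 275 to 332 FPKM in bFGF/EGF, 839 to 907 FPKM in bFGF/BMP4 and 3800 to 4728 FPKM in BMP4, with 7 of 10 higher and 1 lower in each day 6 group than in bFGF/EGF. That of 8 oligodendrocyte precursor markers was 1593 to 2282, 1351 to 1852 and 229 to 446 FPKM, mostly Olig1 and Olig2, with 6 of 8 lower in bFGF/BMP4 and 7 of 8 in BMP4 than in bFGF/EGF. Pdgfra was below 1 FPKM in each group mean and Sox10 was at 0 in both day 6 groups. The sum of 15 neuron and neuroblast markers was 186 to 210, 68.1 to 75.5 and 194 to 294 FPKM. Against bFGF/EGF, 3 were higher and 5 lower in bFGF/BMP4, and 4 higher and 4 lower in BMP4. Dcx did not exceed 0.904 FPKM in a group mean, but 10, 9 and 9 of the 15 genes reached 1 FPKM in some library of bFGF/EGF, bFGF/BMP4 and BMP4. The sum of 8 oligodendrocyte markers was 19.9 to 31.2, 32.5 to 44.6 and 48.1 to 60.2 FPKM, and that of 6 ependymal markers was 7.96 to 12.8, 11.3 to 11.7 and 56.9 to 66.6 FPKM. Between the day 6 groups, 5 of 10 astrocyte markers were higher and 2 lower in BMP4 than in bFGF/BMP4 (median log2 difference 0.59). Of 9 NSC markers 4 were higher and 1 lower, and of 14 neuron and neuroblast markers tested 6 were higher and 2 lower. Of 8 oligodendrocyte precursor markers 3 were lower, and all 4 ependymal markers tested were higher. The share of all genes called in this comparison was 13.5%. Sums of 7 microglial and 6 vascular markers stayed below 1.8 FPKM. Their part in the levels of the glutamate receptor genes was not tested.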

How the data were processed

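Bulk RNA-seq of 9 libraries was analysed from 1 table of FPKM values deposited by the authors, with a column per library. According to the submitters' processing notes and the study's methods, the paired-end reads were cleaned with fastp 0.19.7, aligned to mm39 with HISAT2 2.0.5 and counted with featureCounts 1.5.0-p3. The annotation release, the strand setting and the scaling of the libraries were not given in the sources used here. Of 55414 Ensembl identifiers, 54749 were found in GENCODE vM39 (GRCm39, the same assembly as mm39), which gave symbols and coordinates, and 290 genes had only a name of the authors. The values of each gene were whole multiples of a constant, so the smallest whole fragment numbers were recovered for every gene, which gave the depth. A gene whose true fragment numbers all share a factor would be recovered too low by that factor.

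The study used a count test and states that its raw counts are in its supplement, which was not used here. Since FPKM are not counts, limma 3.58.1 (R 4.3.3) with an intensity trend was fitted to log2(FPKM + 0.1) of genes with a mean of at least 0.1 FPKM, all 9 libraries together, with Benjamini-Hochberg adjustment. The thresholds were an adjusted p of 0.05 and a fold of 2. The fit was also run on simulated counts with few changed genes and none of them at low counts. That run therefore says nothing about low values or about many changes at once. Python 3.11.15, pandas 2.3.3, scipy 1.17.1 and matplotlib 3.10.9 were used for the rest. The 10 genes and the gene lists were chosen with earlier results of these data known. Named genes besides the 10 were all receptor, pentraxin and editing genes with a mean of at least 0.5 FPKM, and in each other list the 2 called genes with the largest absolute log2 fold change per comparison, with marker lists given by sums and counts. Libraries correlated at r = 0.950 to 0.964 within groups and at most 0.915 between groups. The alternatives tried changed the pseudocount (to 1), the filter (none, or a mean of at least 1 FPKM), the scaling (median-ratio or quantile) or the method (limma-voom on fragments), added the replicate number as a block, fitted the compared groups alone, or left out each library in turn. No protein sequence was used here. One gene that the rule names is not reported here.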

Additional observations from a re-analysis of the deposited data

How the results depend on the processing

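No called fold change of a named gene changed sign under the alternatives run. With a pseudocount of 1, 3544 genes were called between bFGF/BMP4 and bFGF/EGF, 4364 between BMP4 and bFGF/EGF and 1449 between BMP4 and bFGF/BMP4, against 6174, 7400 and 2738; with a mean of at least 1 FPKM the last count was 1800. At that filter 4, 4 and 3 other glutamate receptors were called in the 3 comparisons, against 8, 7 and 6. With a pseudocount of 1, 4 were called between BMP4 and bFGF/EGF, and of the auxiliary subunits 9 were called in that comparison and 5 between BMP4 and bFGF/BMP4, against 14 and 8. The higher pseudocount shrinks low values and the stricter filter tests fewer genes. Leaving out each library in turn gave 5740 to 6213, 7000 to 7381 and 2405 to 2719 genes in the 3 comparisons. Of the 10 genes, 9 of which were tested, 7 to 7, 5 to 6 and 6 to 6 were called. The counts were 8 to 9, 6 to 7 and 6 to 7 for the other receptors. For the auxiliary subunits they were 9 to 12, 12 to 15 and 6 to 8. Replicate numbers did not pair the libraries (correlations of deviations -0.08 to 0.12). With the replicate block 6127, 7383 and 2612 genes were called, and 7, 5 and 6 of the 9 tested among the 10 genes. Limma-voom moved the median of all genes by -0.11 between bFGF/BMP4 and bFGF/EGF, and quantile normalization moved it by -0.13 between BMP4 and bFGF/EGF. Among the 9 of the 10 genes that were tested, the fold change moved by more than the spread between libraries in 15 of 216 fits with other settings. Without 1 library it did so in 2 of 243 fits. Depth limits Grm7 in all groups, and Grm3 in BMP4.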
